A study of Arabidopsis thaliana with 9 samples.

Results

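In dark-grown Arabidopsis seedlings, a set of 164 genes had lower mRNA levels after their first hour of red light, while under continuous white light they lay within 2-fold of darkness. The set was chosen from the measured values themselves. A gene was counted when its level on the log2(value + 1) scale was at least 1 lower in R1h than in D and differed by less than 1 between WLc and D, among the 17299 of 17680 genes with a level of at least 10 in 1 or more groups. Steady state mRNA was measured by 3′-end RNA-seq, which counts reads only at the end of each transcript, in whole wild-type seedlings of the Columbia-0 accession, with 3 libraries in each of 3 groups and 9 in all.

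R1h seedlings spent 47 h in darkness before a single hour (1 h) under red light of 10 µE per m2 per s. WLc seedlings were kept for 2 days under uninterrupted white light of 100 µE per m2 per s. D seedlings grew for 2 days in "true dark". R1h and D seedlings shared the same pretreatment, 4 days of stratification, 3 h of white light for germination and a 5 min pulse of far-red light, which switches active phytochrome off, and then grew at 21 °C. For WLc the sources name the stratification but neither the germination light nor the far-red pulse. The growth medium held no sucrose. All groups carried wild-type alleles only, and R1h and WLc differed in the colour, the intensity and the duration of the light together, so that WLc is not a later time point of R1h.

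Red light turns phytochrome into its active form, which moves into the nucleus and brings about the degradation of the PHYTOCHROME INTERACTING FACTORS (PIFs), transcription factors that keep seedlings in their dark form. Genes that PIFs activate lose their transcripts as greening starts, and many of them stay low in light-grown plants. Transcripts with a short half-life can also drop and recover within hours, and seedlings in prolonged darkness without sugar express a starvation programme, in which the kinase SnRK1 takes part, of genes for amino acid and sugar recycling. The comparison here addresses which transcripts were low at the first hour and not in plants adapted to light.

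The deposited table gave 1 level per gene and group, the authors' mean over 3 libraries in pseudo-counts, which are read counts adjusted to a common library size. No value per library was used here, so the levels carry no SD and no p-value, and no difference given here has a replicate check. The paper itself tested R1h and WLc against D with edgeR, but its results for single genes are not given here. Summed over genes, the R1h column held 11.99 M pseudo-counts, the WLc column 12.5 M and the D column 11.4 M, and 1 read was worth about 0.330 pseudo-counts in the R1h mean, 0.327 in the WLc mean and 0.331 in the D mean. The reads behind each level were estimated from these values, and each ratio between groups was given a 95% interval by the exact (Clopper-Pearson) method for 2 counts, which covers counting error only and not the spread between plants or libraries.

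Of all genes tested for size, 426 (2.46%) were at least 2-fold lower in R1h than in D. The 164 genes lower only in R1h (0.948% of all genes) made up 38.5% of them, 232 (1.34% of all genes) were at least 2-fold lower in WLc as well, and 30 (0.173%) were at least 2-fold higher in WLc than in D. In the opposite direction, 673 genes (3.89%) were at least 2-fold higher in R1h than in D, of which 215 (1.24% of all genes) lay within 2-fold of D in WLc. The white light comparison was broader, with 1846 genes (10.7%) lower and 2412 (13.9%) higher in WLc than in D. Both comparisons use the same D column, so their differences are not independent of each other.

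Over the 164 genes, the median level was 27.2 pseudo-counts in R1h, 65.8 in WLc and 79.0 in D. The median log2 difference of R1h minus D was -1.26 and ranged from -2.92 to -1.0, beside a median of 0.00 over all genes. Levels in R1h were between 13.1% and 49.5% of those in D, with a median of 39.6%. In WLc the median difference from D was -0.21, with a range from -0.97 to 0.89 and a median of 0.02 over all genes. The bounds of both ranges were set by the rule, as was the fact that all 164 genes were higher in WLc than in R1h. The plot of the 2 differences shows the set as a block below the cloud of all genes, bounded on both sides.

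**Figure D1:**
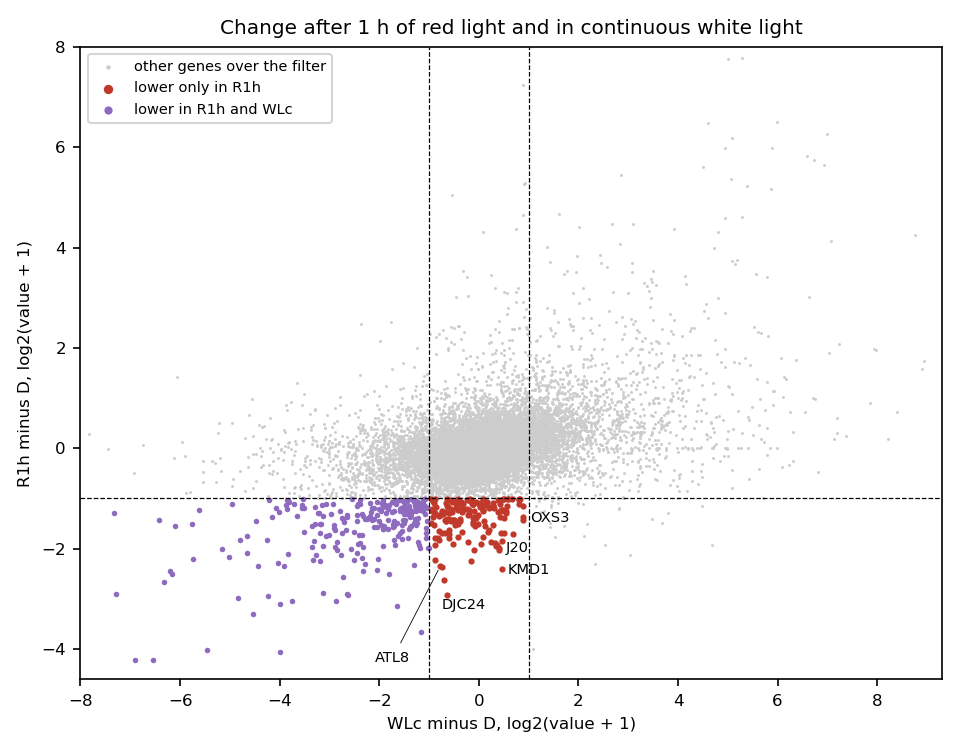
Each point is a gene, placed by its difference of WLc minus D (x axis) and of R1h minus D (y axis), both in log2(value + 1) units, and dashed lines mark the 2-fold bounds. The 164 genes lower only in R1h (red) fill the strip from -0.97 to 0.89 in WLc, beside the 232 genes lower in both lights (purple).

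Most of the set was lowered moderately. The log2 difference of R1h minus D was -2 or below in 9 genes, between -2 and -1.5 in 35 and between -1.5 and -1 in 120. In WLc, 94 genes lay within 0.5 of their level in D on the log2 scale, 54 were lower than D by 0.5 to 1 and 16 were higher by 0.5 to 1. In total, 106 genes were below D and 58 above it in WLc.

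Counting error alone leaves a part of the set uncertain. The level in D was at least 1000 for 23 genes, from 100 to 1000 for 47, from 20 to 100 for 53 and under 20 for 41. The whole 95% interval of the ratio of R1h to D lay below 1 for 163 genes, with PMI15 as the exception, but showed a drop of at least 2-fold throughout for only 73. The whole interval of WLc to D lay within 2-fold for 114, and 60 genes met both. No gene of the set was listed at 0 in R1h, and the fewest reads were 4, for AT1G27590.

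Genes just inside and just outside the bounds had similar log2 differences, although their levels differed. PMI15, whose product takes part in chloroplast movement, was just inside, at 2.61 pseudo-counts in R1h, 11.7 in WLc and 6.22 in D (R1h minus D -1.0), followed by AT3G47680 and AT4G10910 (both -1.0). AT1G18773 was just outside, at 18.3 in R1h, 53.6 in WLc and 37.6 in D, and AT2G30960 and AT1G19380 also had a difference that rounds to -1.0. At the WLc bound, AT2G32150 (WLc minus D -0.97), HAT3 (-0.96) and OZF1 (-0.95) were inside, and AT2G23270 (-1.01), AT2G35170 (-1.02) and AT5G10120 (-1.04) were counted with the genes lower in both lights.

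By the annotation, 28 of the 164 genes encode transcription factors or other nucleic acid-binding regulators, 22 metabolic enzymes, 18 proteins of the ubiquitin system, 8 kinases, phosphatases or their partners, 7 cell wall, cell surface or defence proteins, 5 transporters and 4 DnaJ co-chaperones, and 72 have another or an unknown function. These groups were drawn up after the levels were known. They were counted in the set only, so whether any group was more frequent than over all genes was not tested. The median difference of R1h minus D was -1.89 for the DnaJ genes and -1.46 for the ubiquitin system, and lay between -1.11 and -1.32 for the other groups.

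The DnaJ genes held the lowest ratio of the whole set. DnaJ proteins assist the Hsp70 chaperones, and the small J8, J11 and J20 proteins reside in chloroplasts. DJC24 (AT2G17880) had 92.9 pseudo-counts in R1h, 453 in WLc and 709 in D. Its log2 ratio of R1h to D was -2.93 (95% counting interval -3.12 to -2.75), so that 13.1% of the dark level was left after 1 h, and 63.8% of it was measured in WLc. J20 had 61.2 in R1h, 334 in WLc and 251 in D, a difference of -2.02 in R1h and of 0.41 in WLc. Here and in what follows, a pair of values in brackets gives the log2 difference of R1h minus D and then that of WLc minus D. J11 had 237 in R1h, 859 in WLc and 807 in D (-1.77 and 0.09). J8 had 589 in R1h, 1124 in WLc and 1423 in D (-1.27 and -0.34). R1h was the lowest group for each of the 4 genes, and WLc lay above D for J20 and below it for DJC24 and J8. For J11 the difference between WLc and D turned to the other sign when the columns were scaled to the same total. Of 101 DnaJ-domain genes tested, these 4 were the ones lowered in R1h, beside 2.46% of all genes. None was lower in both lights, beside 1.34% of all genes, and the family median was -0.07 in R1h.

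Within the ubiquitin system, all 4 KISS ME DEADLY genes belonged to the set. They encode F-box proteins with kelch repeats that mark type-B response regulators of cytokinin signalling and phenylalanine ammonia-lyases for degradation. KMD1 (AT1G80440) had 88.4 pseudo-counts in R1h, 652 in WLc and 474 in D. KMD4 (AT3G59940) had 861 in R1h, 3938 in WLc and 2790 in D. KMD2 (AT1G15670) had 327 in R1h, 510 in WLc and 951 in D. KMD3 (AT2G44130) had 386 in R1h, 1167 in WLc and 779 in D. R1h was the lowest level in all 4, whereas WLc was the highest in KMD1, KMD4 and KMD3 and intermediate in KMD2. The log2 differences of R1h minus D were -2.41 for KMD1, -1.70 for KMD4, -1.54 for KMD2 and -1.01 for KMD3, and those of WLc minus D were 0.46 for KMD1, 0.50 for KMD4, -0.90 for KMD2 and 0.58 for KMD3. KMD3 is near the bound, since its counting interval reached from -1.12 to -0.91. KMD2 and KMD3 were singled out after their values were seen. Among 60 kelch-repeat genes tested, these 4 were the ones lowered in R1h, beside 2.46% of all genes, and the family median was -0.22.

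RING-type genes made up most of the rest of the ubiquitin group. ATL8, a membrane-bound RING protein, had 15.7 pseudo-counts in R1h, 48.8 in WLc and 84.4 in D (R1h minus D -2.35, WLc minus D -0.78). AtRZPF34, a CHY- and RING-type zinc finger protein of abscisic acid and drought responses, had 257 in R1h, 977 in WLc and 1045 in D (-2.02 and -0.10). AT3G20395 had 20.6 in R1h, 113 in WLc and 84.9 in D (-1.99 and 0.41). In R1h these 3 RING genes had between 18.6% and 24.6% of their level in D, and in WLc they lay below D (ATL8), near D (AtRZPF34) or above D (AT3G20395). Of 194 RING or U-box genes tested, 9 were lower only in R1h and 3 lower in both lights, beside 0.948% and 1.34% of all genes. AT1G49210 and AT1G49230, which are near neighbours on chromosome 1, were both in the set, at 3.29 and 3.93 in R1h, 12.6 and 10.3 in WLc, and 14.8 and 10.1 in D.

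EBF2 links this group to ethylene. It encodes the F-box protein that targets EIN3, the transcription factor of ethylene signalling that maintains the apical hook of dark-grown seedlings. EBF2 had 625 pseudo-counts in R1h, 1248 in WLc and 2004 in D, a difference of -1.68 in R1h and of -0.68 in WLc. It was the only one of 22 tested genes on the ethylene and apical hook list that was lower only in R1h. On that list 7 genes were lower in both lights. The shares over all genes were 0.948% and 1.34%.

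**Figure D2:**
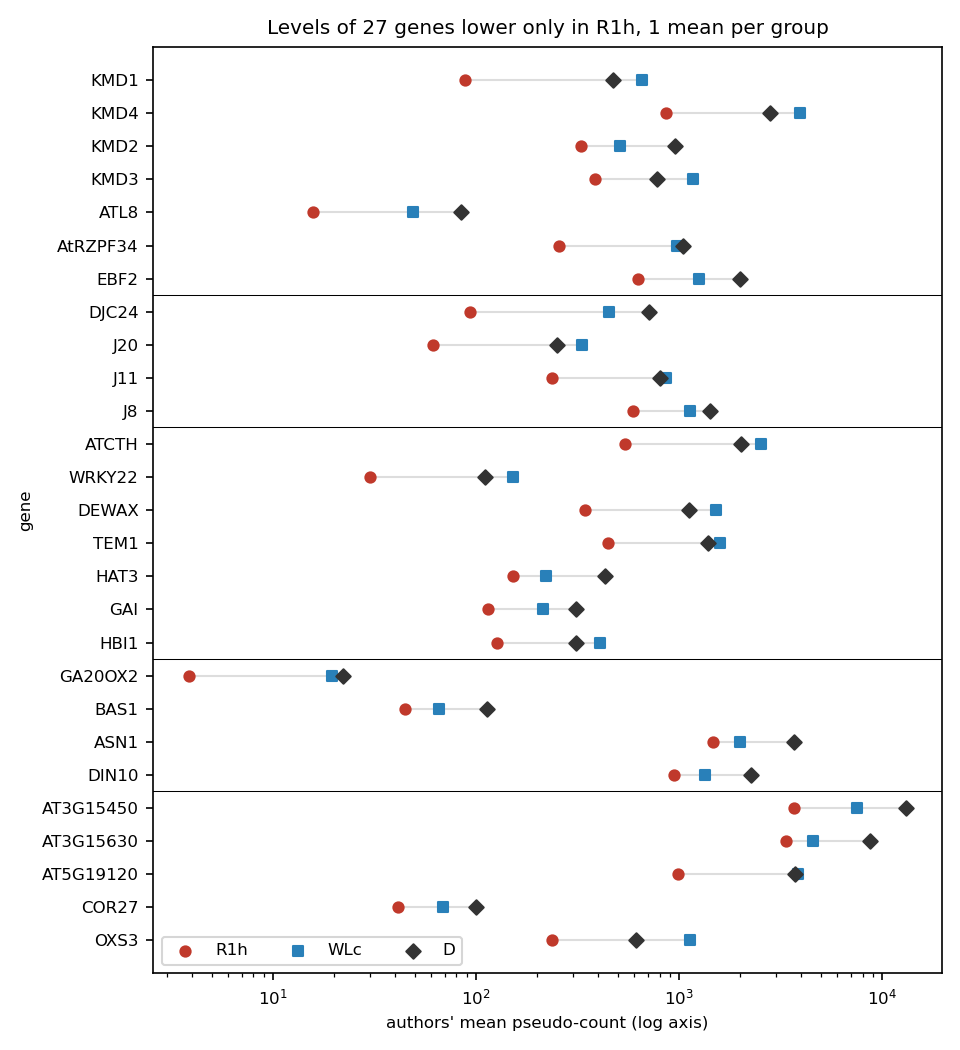
Levels of 27 genes of the set as the authors' mean pseudo-count (log x axis) in R1h (red circles), WLc (blue squares) and D (black diamonds), with lines between the functional groups. Red circles are left of both other symbols in every row, and blue squares lie on either side of the black diamonds, as for KMD1 (652 in WLc, 474 in D) and ASN1 (1989 in WLc, 3671 in D).

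Among the 28 regulators, the median difference of R1h minus D was -1.29, and 12 of the 28 were above D in WLc. The tandem CCCH zinc finger gene ATCTH, whose products bind RNA, had 542 pseudo-counts in R1h, 2541 in WLc and 2019 in D (-1.89 and 0.33). The PLATZ-type zinc finger gene AT5G46710 had 22.7 in R1h, 61.6 in WLc and 88.4 in D (-1.91 and -0.51). WRKY22, a WRKY factor of immunity and dark-induced senescence, had 30.2 in R1h, 153 in WLc and 111 in D (-1.84 and 0.46). In R1h these 3 genes had between 25.7% and 27.3% of their level in D, and in WLc the PLATZ gene lay below D and the other two above it.

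AP2-type factors, many of which act in ethylene and stress responses, held 7 genes lower only in R1h and 6 lower in both lights among 72 genes of that annotation, beside 0.948% and 1.34% of all genes. DEWAX, a repressor of cuticular wax genes that is expressed in the dark, had 345 pseudo-counts in R1h, 1512 in WLc and 1112 in D (-1.68 and 0.44). TEM1, a repressor of the flowering gene FT, had 445 in R1h, 1590 in WLc and 1379 in D (-1.63 and 0.21). ESE3, which is named for its induction by ethylene and salt, had 22.5 in R1h, 42.8 in WLc and 79.7 in D (-1.78 and -0.88). ERF2, an activator of defence genes, had 6.82 in R1h, 14.0 in WLc and 24.3 in D (-1.69 and -0.75). RAP2.4, an AP2-type factor without that annotation, had 250.4 in R1h, 460 in WLc and 517 in D (-1.04 and -0.17). DEWAX and TEM1 were thus above D in WLc, and the other 3 were below it.

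Growth regulators were found as well. The DELLA gene GAI, a repressor of gibberellin responses, had 114 pseudo-counts in R1h, 214 in WLc and 309 in D (-1.43 and -0.53). HAT3, a class II HD-ZIP factor of the shade response, had 152 in R1h, 221 in WLc and 430 in D (-1.5 and -0.96). HBI1, a bHLH factor that promotes cell elongation, had 127 in R1h, 407 in WLc and 310 in D (-1.28 and 0.39). GAI and HAT3 lay below D in WLc and HBI1 was above it. The senescence factor NAC6, also known as ORE1, had 67.6 in R1h, 237 in WLc and 177 in D (-1.37 and 0.42), and the B-box gene BBX27 had 59.3 in R1h, 215 in WLc and 147 in D (-1.29 and 0.55). SGR5, a zinc finger gene of shoot gravitropism, had 16.0 in R1h, 21.7 in WLc and 40.7 in D (-1.29 and -0.88), and the 2 WRKY genes of the set were WRKY22 and WRKY70, the second at 62.9 in R1h, 125 in WLc and 147 in D (-1.21 and -0.23).

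The metabolic enzymes had a median difference of -1.32 in R1h, and 5 of 22 were above D in WLc. GA20OX2, which makes the precursors of active gibberellins, had 3.86 pseudo-counts in R1h, 19.5 in WLc and 22.0 in D. Its log2 ratio of R1h to D was -2.51 with a counting interval from -3.49 to -1.57, the widest of those plotted, because only about 12 reads stood behind the R1h level. BAS1, a cytochrome P450 that inactivates brassinosteroids, had 44.9 in R1h, 65.6 in WLc and 114 in D (-1.32 and -0.79). CYP706A1 had 8.79 in R1h, 47.0 in WLc and 37.0 in D (-1.96 and 0.34). Only 83.6% of the 50-base windows at its 3′ end were unique, so reads from its other windows may have been left uncounted in all groups. The peroxidase gene PRXCA had 6.30 in R1h, 17.7 in WLc and 33.4 in D (-2.24 and -0.88).

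Genes of amino acid and sugar recycling in the dark had high read numbers and hence narrow intervals. ASN1, the dark-inducible asparagine synthetase, had 1474 pseudo-counts in R1h, 1989 in WLc and 3671 in D. Its log2 ratio of R1h to D was -1.32 (-1.37 to -1.27) and that of WLc to D was -0.88 (-0.93 to -0.84). DIN10, a raffinose synthase-like gene induced in darkness, had 938 in R1h, 1344 in WLc and 2245 in D (-1.26 and -0.74). THA1, a threonine aldolase, had 90.7 in R1h, 192 in WLc and 248 in D (-1.44 and -0.37). WLc levels of these 3 genes were below D and above R1h.

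**Figure D3:**
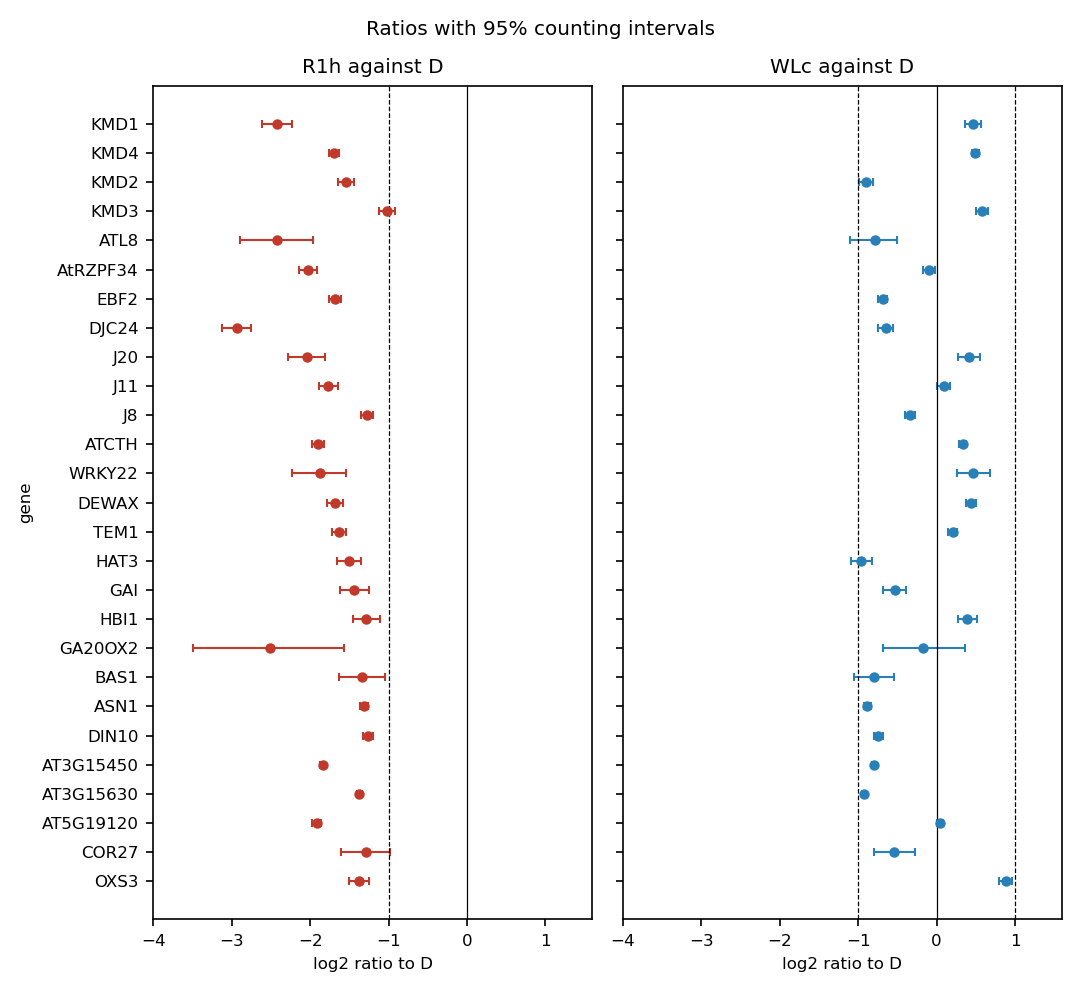
Log2 ratios of R1h to D (left) and of WLc to D (right) for the same 27 genes, with 95% counting intervals as bars and dashed lines at the 2-fold bounds. DJC24 is farthest left in R1h at -2.93, GA20OX2 has the widest bar (-3.49 to -1.57), and on the right the genes spread from -0.96 (HAT3) to 0.88 (OXS3).

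Several genes of other or unknown function had large pseudo-counts. AT3G15450, annotated as an aluminium-induced protein with YGL and LRDR motifs, had 3669 pseudo-counts in R1h, 7517 in WLc and 13108 in D (-1.84 and -0.80). AT3G15630 had 3364 in R1h, 4585 in WLc and 8709 in D (-1.37 and -0.93). AT5G19120, an aspartyl protease-like gene, had 984 in R1h, 3830 in WLc and 3711 in D (-1.91 and 0.05). AT5G21940 had 1511 in R1h, 4959 in WLc and 3375 in D (-1.16 and 0.56). In WLc, AT3G15450 and AT3G15630 had 57.3% and 52.6% of their level in D, AT5G19120 had 103% and AT5G21940 was above D. The sign for AT5G19120 in WLc turned when the columns were scaled to the same total.

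AT5G60680, of the DUF584 family, had 248 pseudo-counts in R1h, 764 in WLc and 1281 in D (-2.36 and -0.74), and AT3G51400, a DUF241 gene, had 4.50 in R1h, 20.1 in WLc and 33.2 in D (-2.63 and -0.70). The genes that were highest in WLc relative to D were SIED1, at 20.3 in R1h, 86.8 in WLc and 46.2 in D (-1.15 and 0.89), AT3G22750, a protein kinase gene (0.88), OXS3 (0.88) and AT1G06370 (0.82). OXS3, a gene of oxidative stress tolerance, had 236 in R1h, 1132 in WLc and 614 in D (R1h minus D -1.37). At the other end, TRFL8 had 94.9 in R1h, 114 in WLc and 220 in D (-1.20 and -0.94).

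The remaining groups were small. The protein phosphatase 2C gene APD7 had 31.9 pseudo-counts in R1h, 118 in WLc and 103 in D (-1.67 and 0.19), and AT1G80870, a kinase gene, had 12.1 in R1h, 24.6 in WLc and 44.3 in D (-1.79 and -0.82). AKINBETA1, a regulatory subunit of SnRK1 that was singled out after its values were seen, had 419 in R1h, 785 in WLc and 865 in D (-1.05 and -0.14). The transporters included STP14, a sugar transporter, at 16.4 in R1h, 49.5 in WLc and 46.3 in D (-1.44 and 0.09), and PUP14, a purine permease that takes up cytokinins, at 199 in R1h, 380 in WLc and 418 in D (-1.07 and -0.14). NHL26, a gene linked with sugar export through the phloem, had 4.56 in R1h, 23.1 in WLc and 19.3 in D (-1.87 and 0.25).

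Lists of genes from known pathways were then counted. These pathway lists were chosen with earlier results of these data known, so their counts and shares only describe the set. Of 24 genes on the dark-inducible and starvation list, 5 (20.8%) were lower only in R1h, against 0.948% of all genes, and these were AT3G15450, ASN1, DIN10, KMD1 and AKINBETA1. Another 4 (16.7%), BCAT-2, DIN2, DYL1 and SEN1, were lower in both lights, against 1.34% of all genes, and 1, BT2, was lower in R1h and higher in WLc. The list median was -0.97 for R1h minus D, beside 0.00 over all genes, and -0.91 for WLc minus D, beside 0.02 over all genes. AT2G33830, with 8281 in R1h, 8289 in WLc and 15871 in D, missed the bound at -0.94 in R1h. In the opposite direction, 1 list gene, DIN9, was at least 2-fold higher in R1h than in D. It had 149.7 in R1h, 27.9 in WLc and 62.7 in D (1.24 and -1.14).

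Of 29 ethylene response factor genes tested, 4 were lower only in R1h (ESE3, ERF2, TEM1 and RAP2.4) and 1 in both lights, beside 0.948% and 1.34% of all genes, and under quantile normalization 2 were lower only in R1h. Of 23 gibberellin genes, 2 were lower only in R1h (GA20OX2 and GAI), 1 in both lights and 1 in R1h with a higher level in WLc. The gene closest in function to GA20OX2, GA20OX1, was at 8.83 in R1h, 0.955 in WLc and 21.4 in D, and so was lowest in WLc. RGA1, another DELLA gene, had 730 in R1h, 781 in WLc and 1059 in D (-0.54 and -0.44). The shade list held 1 gene lower only in R1h (HAT3), 7 lower in both lights and 1 lower in R1h and higher in WLc among 19. The brassinosteroid list held 1 gene lower only in R1h (BAS1) among 18, the list of circadian- and cold-linked flowering genes 1 (TEM1) among 10, and neither held a gene lower in both lights.

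No gene of the set was on the lists of clock genes (25 tested, of which 13 were at least 2-fold higher in R1h and 0 lower), Aux/IAA and ARF genes (29), auxin synthesis and conjugation (15), jasmonate (25), wound, touch and rapid stress (41), abscisic acid (27), cytokinin (17), expansins and XTHs (48), heat shock (12), BTB-TAZ and nitrate (15) or reference genes (8). With at most 48 genes on each of these lists and 0.948% of all genes in the set, fewer than 1 gene per list corresponds to the share over all genes.

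PIF direct target genes (PIF-DTGs) are genes bound by PIFs whose dark levels differ in the quadruple pif mutant. They were defined in earlier work on other samples. Of 192 PIF-induced DTGs over the filter, 1 (0.521%), AT1G36060, was lower only in R1h, while 37 (19.3%) were lower in both lights. Of 108 PIF-repressed DTGs, 6 (5.56%) were lower only in R1h and 0 in both lights, and 3 were lower in R1h and higher in WLc. Among the same 108 genes, 18 were at least 2-fold higher in R1h and 52 in WLc, beside 3.89% and 13.9% of all genes. The median of these 108 genes was 0.03 for R1h minus D and 0.83 for WLc minus D. Counted by gene group, 3.66% of the genes lower only in R1h were PIF-repressed DTGs, against 0% of the genes lower in both lights and 0.624% of all genes, and 0.610% were PIF-induced DTGs, against 15.9% of the genes lower in both lights and 1.11% of all genes.

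The PIF-repressed DTGs in the set were KMD1, CYP706A1, ERF2, DEWAX, APD7 and AT3G45730. In the earlier work such genes had higher levels in dark-grown pif mutants, whereas here each was lower after 1 h of red light than in D. AT3G45730 had 325 pseudo-counts in R1h, 359 in WLc and 658 in D (-1.02 and -0.87). KMD1, CYP706A1, DEWAX and APD7 lay above D in WLc, and ERF2 and AT3G45730 lay below it. AT1G36060, the PIF-induced DTG, encodes an AP2-type factor and had 43.4 in R1h, 124 in WLc and 88.7 in D (-1.01 and 0.48).

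**Figure D4:**
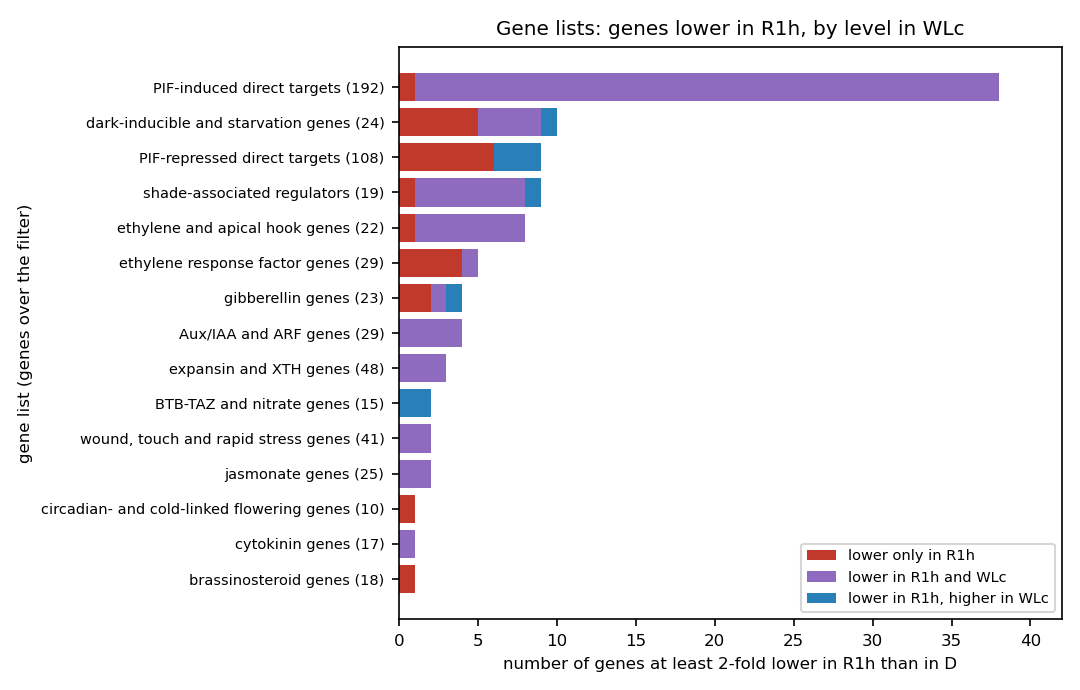
For each gene list (number of genes over the filter in brackets), bars give the number of genes at least 2-fold lower in R1h than in D, split into those within 2-fold of D in WLc (red), those also lower in WLc (purple) and those higher in WLc (blue). PIF-induced direct targets are nearly all purple (37 of 38), and PIF-repressed direct targets hold 6 red and no purple.

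Gene structure was not used to choose the set. Of its 159 protein-coding genes, 64 (40.3%) had a single exon in the RefSeq annotation of TAIR10.1, close to the 39.7% of the genes lower in both lights, and above the 29.4% of the genes higher only in R1h and the 14.2% of all genes. The median was 2 exons, against 5 over all genes, and the median coding length was 906 bases, against 1134. The single-exon share was thus close in both groups of genes lower in R1h. Reads could be assigned to most of the set, since all 50-base windows of the last 500 transcript bases were unique for 150 genes, and fewer than 90% were unique for 4 (RMA1, AT2G36770, CYP706A1 and AT1G63230).

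Promoters were read from the RefSeq TAIR10.1 genome by locus name for 163 of the 164 genes, from 250 bases before to 50 bases after the annotated start, although the reads had been counted on TAIR9 transcripts. Each of 18 short sequences was searched on both strands. The evening element, AAAATATCT, which is bound by MYB-related clock proteins and is common in genes expressed at dusk, occurred in 14 promoters (8.59%), against 3.46% of the genes lower in both lights, 3.26% of those higher only in R1h and 2.99% of all genes. In 1000 bases before the start the share was 14.7%, against 9.52% of the genes lower in both lights, 9.77% of those higher only in R1h and 7.30% of all genes. The genes with the element in the shorter window had R1h differences from -1.91 to -1.0 and WLc differences from -0.91 to 0.89 and 7 of 14 were above D in WLc. The CCA1-binding site, also among the sequences searched, occurred in 6.13% of the promoters, against 8.26% of all genes. Its share was 11.3% in the genes lower in both lights and 8.37% in those higher only in R1h. A match is a string of letters and no evidence of binding, and 18 sequences were compared without a test.

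The windows around the evening element of 7 of these genes are printed because, of the sequences found in more than 5 promoters of the set, this one had the highest ratio of its share to that over all genes. Each is 39 bases long, on the strand of the gene, with the element in capitals.
KMD4, chr3:22142759-22142797 (+): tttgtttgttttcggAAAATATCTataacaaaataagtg
GAI, chr1:5148831-5148869 (+): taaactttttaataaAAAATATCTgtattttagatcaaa
STP14, chr1:29012149-29012187 (-): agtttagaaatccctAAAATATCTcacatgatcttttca
CCL, chr3:9827574-9827612 (+): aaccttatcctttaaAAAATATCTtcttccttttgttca
ESE3, chr5:8708095-8708133 (-): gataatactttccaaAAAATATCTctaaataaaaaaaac
NAKR1, chr5:586965-587003 (-): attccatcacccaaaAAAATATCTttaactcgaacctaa
SIED1, chr5:7373359-7373397 (-): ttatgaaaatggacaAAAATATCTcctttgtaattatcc
The first base of the element lay 126 bases before the start in KMD4, 136 in GAI, 76 in STP14, 93 in CCL, 233 in ESE3, 35 in NAKR1 and 123 in SIED1. Over all 14 genes there were 15 matches, of which 12 were on the strand of the gene. A match in AT3G47680, AT5G46710 and COR27 was on the opposite strand. In DEWAX and AT1G19310 the element began 20 bases after the start.

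Among the other values of genes with the element, COR27, a cold-regulated gene whose product represses clock genes, had 41.1 pseudo-counts in R1h, 68.8 in WLc and 100.2 in D (-1.27 and -0.54). CCL, known for an mRNA whose decay rate follows the circadian clock, had 772 in R1h, 2004 in WLc and 1639 in D (-1.09 and 0.29). NAKR1, a metal-binding protein of the phloem, had 11.8 in R1h, 25.0 in WLc and 33.0 in D (-1.41 and -0.39). These 3 genes were singled out after their values were seen.

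The sequence TATCCA, known from sugar-starvation responses of rice amylase genes, occurred in 45 promoters (27.6%), against 24.7% of the genes lower in both lights, 25.6% of those higher only in R1h and 16.4% of all genes. The I-box, GATAAG, known from light-regulated promoters, occurred in 36 (22.1%), against 19.9% of the genes lower in both lights, 11.2% of those higher only in R1h and 15.4% of all genes. The 2 can overlap, because the reverse complement of TATCCA is TGGATA. Both were present in 15 promoters, and shared bases in 9. The share of TATCCA was thus similar in all 3 responding groups, and that of the I-box was similar in the genes lower in both lights.

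Sequences that PIFs bind had shares close to those of the genes lower in both lights. The G-box, CACGTG, occurred in 7.98% of the promoters, against 8.66% of the genes lower in both lights, 14.4% of those higher only in R1h and 9.21% of all genes. The PIF-binding E-box CACATG occurred in 16.6%, against 17.3% of the genes lower in both lights, 15.3% of those higher only in R1h and 12.8% of all genes. The HD-ZIP sequence CAATNATTG occurred in 5 promoters (3.07%), against 0.433% of the genes lower in both lights, 0.930% of those higher only in R1h and 1.21% of all genes. In 1000 bases before the start its share was 3.68%, close to the 3.57% of all genes. In that window it was 3.46% in the genes lower in both lights and 4.19% in those higher only in R1h. Site II, TGGGCC, a mark of genes for translation and growth, was less frequent at 5.52%, against 6.49% of the genes lower in both lights, 11.2% of those higher only in R1h and 19.3% of all genes. The promoter of ASN1 is shown since it holds the I-box (on both strands), TATCCA, a G-box and the HD-ZIP sequence within 250 bases, all in capitals.
ASN1, chr3:17441432-17441681 (-): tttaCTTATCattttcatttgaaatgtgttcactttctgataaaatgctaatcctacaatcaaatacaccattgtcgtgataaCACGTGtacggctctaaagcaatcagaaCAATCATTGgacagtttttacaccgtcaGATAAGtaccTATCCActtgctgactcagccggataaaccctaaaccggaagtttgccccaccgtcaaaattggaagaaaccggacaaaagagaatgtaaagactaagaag

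**Figure D5:**
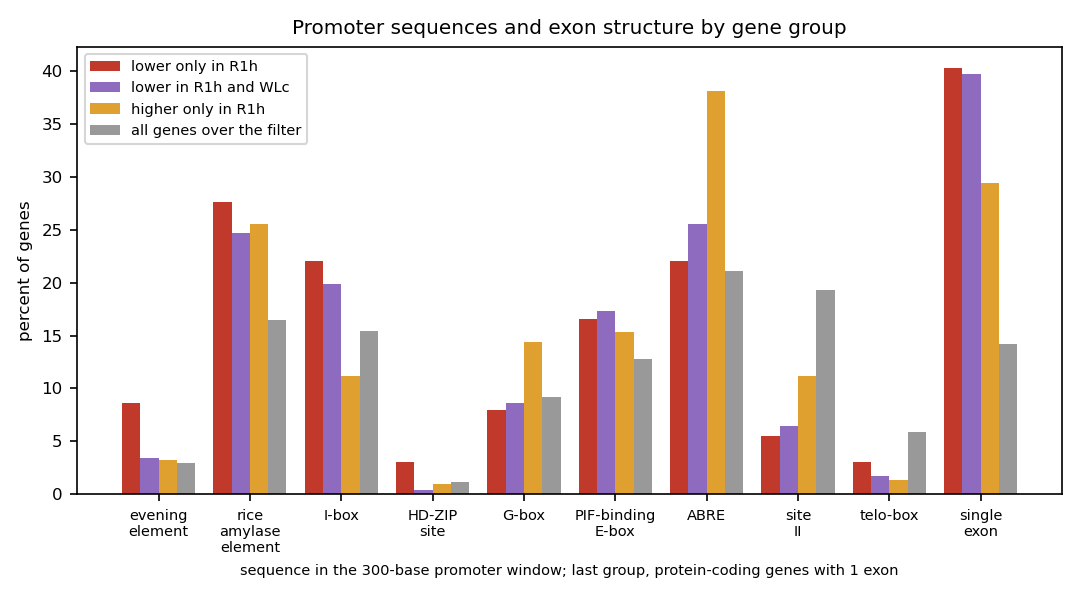
Percent of genes (y axis) with each sequence in the 300-base promoter window, and, as the last group, percent of protein-coding genes with 1 exon, for the genes lower only in R1h (red), lower in R1h and WLc (purple), higher only in R1h (orange) and all genes over the filter (grey); the rice amylase element is TATCCA. The evening element is at 8.59% in red and 2.99% in grey, and the single-exon bars are nearly equal in red (40.3%) and purple (39.7%).

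Members lay near each other on the chromosome in 4 cases, with at most 2 genes between them. J11 and AT4G36050 are adjacent on the same strand, 1302 bases apart. AT4G36050 had 23.5 pseudo-counts in R1h, 29.5 in WLc and 54.1 in D (-1.17 and -0.86), whereas J11 was within 0.09 of D in WLc. The other pairs were BCB and DIN10, AT4G28150 and AT4G28180, and the RING genes AT1G49210 and AT1G49230.

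Whole seedlings were sampled, so fewer cells of a type and less RNA per cell cannot be told apart. Summed pseudo-counts of 5 markers of photosynthetic tissue were 70739 in R1h, 633899 in WLc and 49091 in D. The sums were 5847 in R1h, 1688 in WLc and 7564 in D for 5 root markers, and 2648 in R1h, 248 in WLc and 1699 in D for 5 seed reserve genes, 1 of which was listed at 0 in a group. They were 154 in R1h, 476 in WLc and 140.1 in D for 3 stomatal lineage genes, and 561 in R1h, 965 in WLc and 573 in D for 2 phloem genes. None of these markers belonged to the set. The part of tissue composition in the WLc levels was not tested.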

How the data were processed

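RNA was measured in 9 libraries, 3 per group, and the treatment labels of the samples gave the groups. The authors used Bowtie to align 50-base reads to TAIR9 representative transcripts without mismatches, counted unique reads on the coding strand within 500 bases of the 3′ end, and used edgeR, in versions not given in the sources used here. Signal values as deposited are edgeR pseudo-counts in 1 mean column per group, made by the authors. From there, differences of log2(value + 1) were computed with Python 3.11.15, pandas 2.3.3, numpy 2.4.6 and scipy 1.17.1; the pseudocount of 1 understates the change of low genes. The planned tests need values per library and were not run, so genes are counted by size alone. In both R1h and WLc the fold is against the same D column. The selection rule and the intervals were run on simulated counts with counting error only, so the spread between libraries was not covered.

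The members and lists were chosen with earlier results of these data known. PIF-DTG lists are the 2 of earlier work. Of 512 list symbols, 21 were not matched, and 7 that other genes also carry were matched by locus. Genes were named by a rule: the 12 lowest in R1h with a level of at least 50 in D, the 6 highest in D, up to 4 per annotation class and list, all PIF-DTGs, 3 on each side of each bound, and the 4 highest and 4 lowest in WLc. Further genes were named outside this rule, among them SOB5, AT1G80180, AT5G16110, AT1G71970, AT1G49230 and AT4G36050. Motifs other than those spelled out with the results were the ACGT core, the CCA1-binding site (AAAAATCT), the W-box (TTGACC or TTGACT), the GCC-box (GCCGCC), the DRE core (CCGAC), the CAMTA site (CGCGT), the ABRE (ACGTGT or ACGTGG), the proline-responsive element (ACTCAT), the auxin element (TGTCTC or TGTCGG), the telo-box (AAACCCTA) and the heat shock element (GAANNTTC); G-box, ABRE and ACGT core overlap. Alternatives were other pseudocounts, filters, scalings and bounds.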

Additional observations from a re-analysis of the deposited data

How the results depend on the processing

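The 164 genes became 178 with a pseudocount of 0.5 and 120 with 5, 187 when the columns were scaled to the same total, 147 under quantile normalization and 159 with median-of-ratios size factors, of which 164, 114, 146, 136 and 159 belonged to the 164. Under all 3 scalings together 126 of the 164 were kept. Without a filter 182 genes met the rule, with a minimum of 20 there were 129 and with 50 there were 97. A bound of -1.5 in R1h left 44 genes, a bound of 0.5 in WLc left 94, and counting intervals clear of both bounds left 60, as stricter rules must. The median R1h difference lay between -1.33 and -1.12 and the WLc median between -0.39 and -0.18. Scaling to the same total moved the median of all genes in WLc by -0.13, and WLc levels above D were then 47 of 164 in place of 58. Quantile normalization left 0 PIF-induced targets and 2 ethylene response factor genes in the set. The other group and list counts stayed within 1.5 times where they were recounted. In 1000 bases, a window chosen after seeing the data, 14.7% of the promoters held the evening element, 52.1% the I-box and 51.5% TATCCA, since a longer window holds more matches. Over all genes these shares were 7.30%, 41.7% and 44.4%. TATCCA was at 47.2% in the genes lower in both lights and at 54.9% in those higher only in R1h. Of 87 named genes, R1h differences moved beyond their counting error in 9 under total scaling and 8 under quantile normalization, and WLc differences in 25 and 19, and no R1h difference changed sign. No paired analysis was possible because the table holds 1 column per group, and leaving out each replicate was not run for the same reason. Genes with a level under 20 in D (41 of 164) are limited by read number.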

Other observations

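Some small families had 2 members in the set, which were looked up after the values were seen. Of 5 DUF1005 genes over the filter, AT1G50040 had 59.0 pseudo-counts in R1h, 158 in WLc and 170 in D, and AT4G29310 had 89.1 in R1h, 290 in WLc and 212 in D. Of 7 wound-responsive family genes, AT4G05070 had 506 in R1h, 1419 in WLc and 1435 in D, and AT4G28240 had 75.8 in R1h, 129 in WLc and 207 in D. Of 11 GRAM-domain genes, AT5G08350 had 393 in R1h, 871 in WLc and 930 in D, and AT5G23360 had 144 in R1h, 201 in WLc and 297 in D, while 1 further gene was lower in both lights. Of 9 PLATZ genes, 2 were lower only in R1h and 1 in both lights. Over all genes, 0.948% were lower only in R1h and 1.34% in both lights. The family medians of R1h minus D were -0.66 for DUF1005, -0.47 for wound-responsive, -0.39 for GRAM-domain and -0.69 for PLATZ genes. The median over all genes was 0.00.

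Some genes of unknown function with large pseudo-counts were near or above D in WLc. AT1G80180 had 1295 in R1h, 3477 in WLc and 2656 in D. AT5G16110 had 1252 in R1h, 2460.0 in WLc and 2667 in D. AT1G71970 had 611 in R1h, 1542 in WLc and 1607 in D. In WLc, AT5G16110 had 92.3% and AT1G71970 had 95.9% of the level in D, with counting intervals wholly below D. SOB5, whose overexpression suppresses a phytochrome B mutant, had 13.2 in R1h, 37.3 in WLc and 30.4 in D.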
